A study of Lytechinus variegatus with 23 samples.

Results

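Sea urchin embryos (Lytechinus variegatus) exposed to alizarin were compared with control embryos at 24 hours post fertilisation (hpf). The libraries were chosen by their labelled treatment and time, and the comparison holds 6 of the 23 in the study: alizarin A, B and C and control A, B and C. All were made from mRNA of whole embryos. The remaining 17 libraries, from 12, 18 and 30 hpf, entered the same model and are used below only to place the 24 hpf results in time. Their groups held 3 libraries each, apart from the 2 of alizarin at 18 hpf, B and C. The labels give no genotype or strain, and the dose of the dye, when it was added and what the control embryos received are not given in the sources used here. Nor do the labels say whether libraries A, B and C came from separate cultures or crosses. A p-value here sets a difference between groups against the spread of libraries within the groups of the whole model. Part of that spread may be technical.

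Alizarin is a dye that binds calcium and stains mineralised tissue. In a sea urchin embryo the mineral is made by the primary mesenchyme cells (PMCs), which enter the blastocoel, fuse into a syncytium and build calcite spicules in a closed compartment. They take up calcium and bicarbonate, deposit an amorphous calcium carbonate precursor and secrete spicule matrix proteins that become occluded in the mineral. Transcription factors such as Ets1, Alx1 and Tbr specify these cells, and vascular endothelial growth factor (VEGF) from the ectoderm guides them and sustains their skeletal genes.

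Total counts at 24 hpf lay between 9459626 and 11730004 a library, and levels below are CPM, read counts per 1000000 of the scaled library size. Markers of 10 cell types and territories were summed, among them those of PMCs, pigment cells, gut, neurons, ciliated cells and muscle. Every one of the 10 had at least 3 marker genes with reads in all 6 libraries. With 20490 to 21768 genes having a count in each library, this is a low bar and cannot check the whole-embryo label. Summed PMC markers (18 tested genes) reached 8488 to 12858 CPM in controls and 2567 to 3450 CPM with alizarin. Of these sums Sm30A, described below and not called, alone gave 3742 to 6759 CPM in controls and 247 to 1073 CPM with alizarin. Muscle markers (7 genes) summed to 191 to 324 CPM against 94.3 to 124 CPM. Most of the muscle sum in every library came from a single gene, Mlcka, described below, so the sum mainly follows that gene. Ciliated cell markers (14 genes) summed to 794 to 1302 CPM against 521 to 610 CPM, and neuronal markers (4 genes) to 230.4 to 301 CPM against 294 to 307 CPM. In whole embryos, fewer cells of a type and less RNA per cell cannot be told apart. Ribosomal protein genes took 14.9% to 19.7% of control counts, 10.5% of alizarin A, 11.3% of alizarin B and 17.2% of alizarin C. On the leading principal component of the 6 libraries (31.5% of the variance) alizarin C stood at 94.0 and the other 5 between -58.7 and 32.9, while on the second (29.0%) the controls lay between 40.9 and 49.0, alizarin A at -66.0, alizarin B at -60.2 and alizarin C at -5.50. The part of these library differences in the gene results was not tested, and the number of calls without each library is given with the counts.

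Of 18419 genes tested with edgeR's quasi-likelihood method, 155 (0.842%) passed an adjusted p of 0.05. With alizarin 133 of them (0.722%) fell and 22 (0.119%) rose, while the median log2 fold change of all genes was 0.02. Falls were large: 91 genes fell more than 4-fold and 47 more than 8-fold. All 155 had every control library on one side of every alizarin library, as had 17.4% of all genes. DESeq2 called 505 genes, 84 of them higher. Leaving out 1 library gave 41 calls without alizarin A, 65 without alizarin B, 93 without alizarin C, 167 without control A, 45 without control B and 67 without control C. A core of 30 genes, 27 lower and 3 higher, was called in each of these 6 fits, and 18 of the 155 in none of them. Log2 fold changes below are given for alizarin over control, followed by a standard error. Adjusted p-values are those of edgeR over all genes, and gene symbols are those of the matched gene of the urchin Strongylocentrotus purpuratus.

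**Figure D1:**
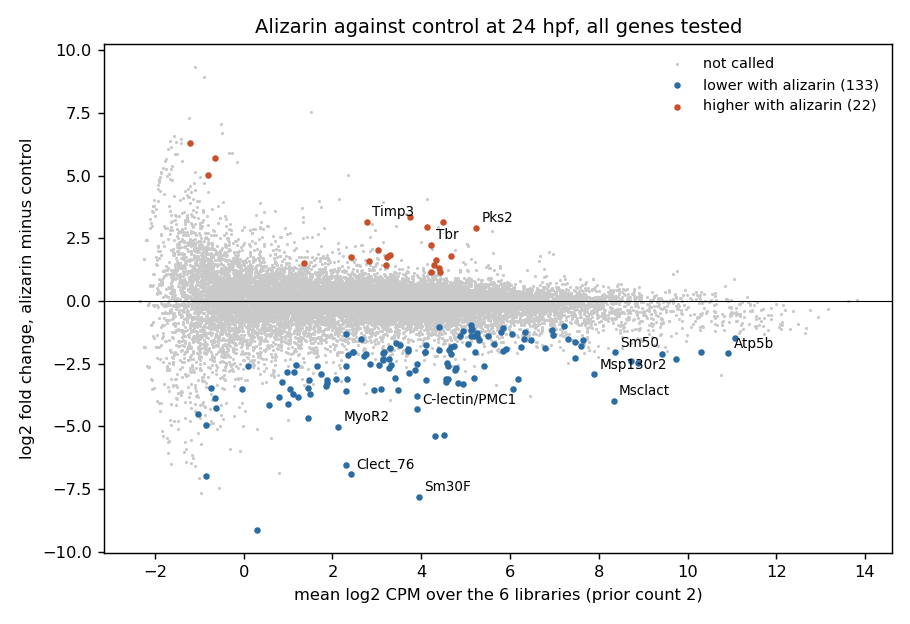
Each point is 1 of the 18419 genes tested, with its mean log2 CPM over the 6 libraries on the x axis and its log2 fold change, alizarin minus control, on the y axis. The 133 genes called lower (blue) reach down to a log2 fold change of -9.12, and the 22 called higher (red) are fewer and reach up to 6.32.

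Spicule matrix proteins, the secreted proteins occluded in the mineral, held 4 of the falls. Of 15 such genes 12 had enough reads to test, 4 fell (33.3%, against 0.722% of all genes) and none rose. The median log2 fold change of the 12 was -2.49. All 12 had lower values in every alizarin library than in any control library, as did 1964 of all 18419 genes. All 12 also had an unadjusted p under 0.05, against 7.79% of all genes with such a p in this direction. Their joint share of the counts was 0.636%, 1.07% and 0.862% in controls A, B and C, and with alizarin 0.250%, 0.297% and 0.120% in the same order. Much of the control share came from Sm30A, described below and not called. It gave 3742 of 6788 CPM in control A, 6759 of 11031 in B and 5315 of 10273.5 in C.

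The largest fall in this list was that of Sm30F (L_var_26911), a member of the Sm30 family of spicule matrix glycoproteins. Its levels were 118, 460.3 and 375 CPM in controls A, B and C, and with alizarin 0.0753, 3.62 and 0.433 CPM in the same order. The groups were far apart, with alizarin B the highest treated library and control A the lowest control (log2 fold change -7.80 ± 1.10, adjusted p = 0.00158). C-lectin/PMC1 (L_var_26903), a C-type lectin named for its expression in PMCs, had 36.1, 70.4 and 94.4 CPM in controls and 3.39, 2.62 and 4.22 CPM with alizarin. Its treated libraries were close together and below every control (log2 fold change -4.30 ± 0.61, adjusted p = 0.00118), and both it and Sm30F kept their calls without any 1 of the 6 libraries.

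Sm50 (L_var_27181), the matrix protein of the growing spicule that serves as a standard PMC marker, had 450.3, 741 and 834 CPM in controls and 156, 151 and 187 CPM with alizarin. The 3 treated libraries lay within a narrow band, control A was the lowest control, and the groups did not overlap (log2 fold change -2.04 ± 0.43, adjusted p = 0.0271). Sm50 kept its call without control A but lost it without any other library (adjusted p up to 0.148). Its family member Sm32 (L_var_27180) had 98.02, 159.6 and 184 CPM against 32.5, 41.3 and 49.2 CPM, again with control A nearest to the treated libraries (log2 fold change -1.84 ± 0.33, adjusted p = 0.00785). Sm32 lost its call without alizarin A (adjusted p = 0.0782).

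The other 8 spicule matrix genes missed the threshold, with non-overlapping groups. DESeq2 called 9 of the 12 lower, as did edgeR fitted to the 24 hpf libraries alone, against the 4 above. Of all genes DESeq2 called 421 (2.29%) lower, and edgeR fitted to the 24 hpf libraries alone called 131 lower. Sm30A (L_var_26913), the Sm30 gene with the most reads, had 3742, 6759 and 5315 CPM in controls and 728, 1073 and 247 CPM with alizarin (log2 fold change -2.95 ± 0.82, adjusted p = 0.1001), and alizarin C was its lowest library. Log2 fold changes of the 2 Sm30b copies, -3.77 and -3.33, came with adjusted p = 0.0595 and 0.0675. For Sm30E (L_var_26909) the values were -3.07 and 0.2604, for Sm37 (L_var_27179) -1.61 and 0.0643, and for Pm27 (L_var_27177) -1.67 and 0.0675. Sm29 (L_var_26743) had -1.29 and 0.253, and the gene matched to C-lectin (L_var_22051) had -0.77 and 0.412. Sm30 genes form a family of similar copies, and how the counting divided reads between them is not given in the sources used here.

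**Figure D2:**
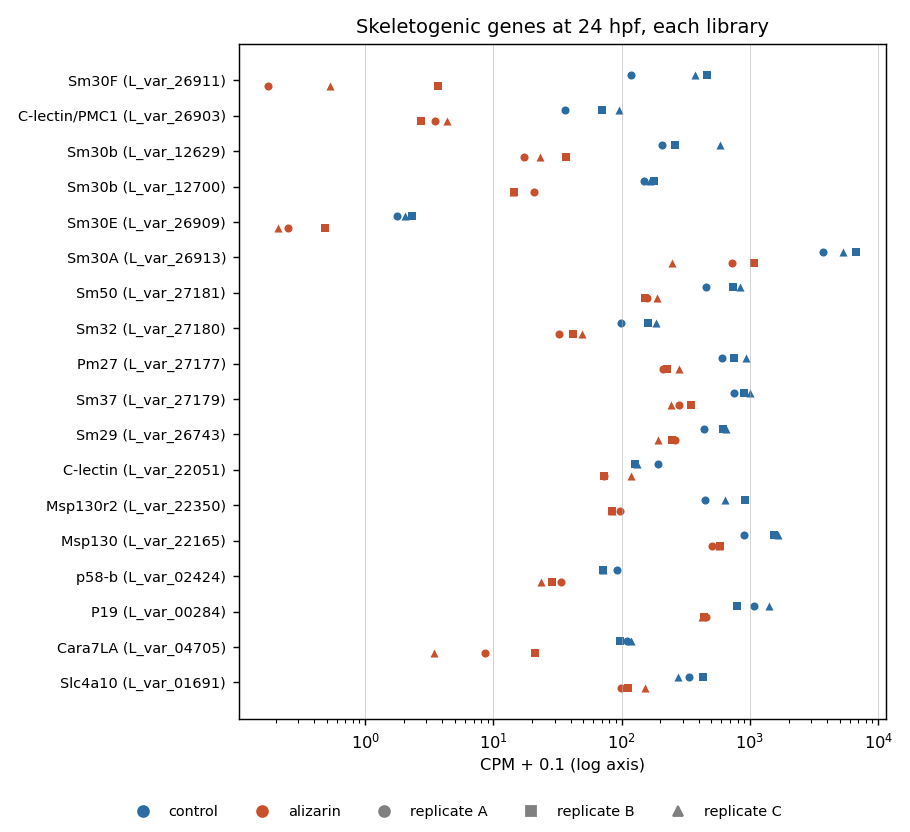
CPM in each library at 24 hpf, with 0.1 added, on a log axis, for the 12 spicule matrix genes tested, 4 PMC surface genes and 2 carbonate genes (blue controls, red alizarin, symbols for replicates A, B and C). In every row the 3 red symbols lie left of the 3 blue ones, with the widest gap for Sm30F. The surface and carbonate rows are only part of their lists, in which 66.7% and 22.9% of tested genes had groups that did not overlap.

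Of 20 genes for PMC surface and biomineralisation proteins 18 were tested, 1 fell (5.56%, against 0.722% of all genes) and none rose. A negative log2 fold change was found for 16, and the median was -1.30. In that direction 13 had an unadjusted p under 0.05, against 7.79% of all genes. DESeq2 called 5 lower, against 2.29% of all genes. Msp130r2 (L_var_22350), a relative of the PMC surface glycoprotein Msp130, had 447, 912 and 636 CPM in controls and 96.1, 83.6 and 84.4 CPM with alizarin. The treated libraries were nearly equal and all far below control A, the lowest control (log2 fold change -2.92 ± 0.39, adjusted p = 0.000534), and the call was kept without any 1 of the 6 libraries. Msp130 (L_var_22165) itself had 901, 1528 and 1646 CPM against 509, 581 and 578 CPM (log2 fold change -1.29 ± 0.36, adjusted p = 0.103). The gene p58-b (L_var_02424), a transmembrane protein needed for spicule growth, had 91.4, 71.2 and 71.1 CPM against 33.5, 28.8 and 23.3 CPM (log2 fold change -1.45 ± 0.35, adjusted p = 0.0533). P19 (L_var_00284), a small PMC protein, had 1080.3, 787 and 1408 CPM against 457, 435 and 419.8 CPM (log2 fold change -1.32 ± 0.34, adjusted p = 0.0697). In these 3 the groups were apart, but none passed the threshold. Values for p58-a (L_var_02425) were -1.18 and adjusted p = 0.0873, and for P16 (L_var_11249), a PMC membrane protein involved in spicule elongation, -1.65 and 0.223. The copy Msp130r6 (L_var_22363) had 0.392, 0.617 and 181 CPM in controls, nearly all its reads in control C, so its log2 fold change of -4.76 ± 2.07 rests on 1 library.

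Among 48 tested genes of carbonate, calcium and proton handling 3 fell (6.25%, against 0.722% of all genes) and none rose. Their median log2 fold change was 0.03. Cara7LA (L_var_04705), matched to a carbonic anhydrase-like gene (carbonic anhydrases interconvert CO2 and bicarbonate), had 110.3, 97.6 and 118 CPM in controls and 8.505, 20.97 and 3.36 CPM with alizarin. Controls were alike, treated libraries spread more widely, and the groups were well apart (log2 fold change -3.30 ± 0.61, adjusted p = 0.0112). Cara7LA lost its call without alizarin A (adjusted p = 0.0996). Slc4a10 (L_var_01691), a bicarbonate transporter that PMCs of S. purpuratus need for mineralisation, had 336, 434 and 276 CPM against 98.5, 111 and 151 CPM, without overlap (log2 fold change -1.54 ± 0.32, adjusted p = 0.0229). Slc4a10 lost its call without alizarin A, alizarin B or control B (adjusted p up to 0.148). A further Slc4a10 copy (L_var_01872) had log2 fold change -0.95 ± 0.39 and adjusted p = 0.335. Otop2L (L_var_02543), matched to the otopetrin proton channels, had 20.2, 20.7 and 13.5 CPM against 5.42, 5.09 and 2.38 CPM (log2 fold change -2.06 ± 0.48, adjusted p = 0.0451). Otop2L lost its call without each of the 6 libraries in turn (adjusted p up to 0.182). Its copy L_var_02546 had -1.43 ± 0.42 and adjusted p = 0.128.

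Among the regulators of PMC identity 20 of 20 were tested, 1 rose (5%, against 0.119% of all genes) and none fell. Their median log2 fold change was -0.27. The rise was that of Tbr (L_var_02106), the T-brain transcription factor that acts early in PMC specification. Tbr had 4.02, 5.55 and 19.1 CPM in controls and 51.6, 48.5 and 35.2 CPM with alizarin. Control C was the highest control and alizarin C the lowest treated library, and they did not overlap (log2 fold change 2.24 ± 0.44, adjusted p = 0.0182). Tbr kept its call without alizarin C or control C but lost it without any other library (adjusted p up to 0.138), and edgeR fitted to the 24 hpf libraries alone did not call it (adjusted p = 0.0988). Alx1 (L_var_16422), the regulator of PMC fate and of many biomineralisation genes, had 10.6, 16.2 and 22.2 CPM against 8.43, 8.48 and 8.88 CPM (log2 fold change -0.93 ± 0.51, adjusted p = 0.505). SoxE (L_var_17157) had 27.5, 67.5 and 39.2 CPM against 13.2, 20.4 and 17.8 CPM (log2 fold change -1.39 ± 0.37, adjusted p = 0.0873). FoxN2/3 (L_var_13332) and Nk7 (L_var_19602) had higher means with alizarin, with log2 fold changes of 1.31 ± 0.38 and 2.06 ± 0.73 and adjusted p = 0.115 and 0.235.

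None of the 60 tested genes for signals and receptors that pattern the skeleton passed the threshold. At an unadjusted p under 0.05, 8 were higher and 1 lower, against 4.03% of all genes higher and 7.79% lower, and the median was 0.14. The Vegfr gene with the most control reads, Vegfr10 (L_var_00558), had 15.9, 22.6 and 25.005 CPM in controls and 47.1, 38.01 and 18.5 CPM with alizarin, and alizarin C lay within the control range (log2 fold change 0.71 ± 0.32, adjusted p = 0.3899). The ligand gene Vegf3 (L_var_00379), expressed in ectoderm near the growing spicules, had 5.98, 5.73 and 6.02 CPM against 9.93, 7.02 and 4.87 CPM, with overlapping groups (log2 fold change 0.30 ± 0.32, adjusted p = 0.784). Wnt1 (L_var_02310), a secreted Wnt ligand, had 28.8, 21.9 and 22.04 CPM against 34.5, 48.8 and 53.5 CPM with no overlap (log2 fold change 0.91 ± 0.25, adjusted p = 0.0955). Bmp2/4 (L_var_14096), a dorsal signal, had 21.5, 16.9 and 15.9 CPM against 27.5, 26.8 and 26.2 CPM (log2 fold change 0.57 ± 0.25, adjusted p = 0.366), and Nodal (L_var_26144), the ventral signal, had 127, 104 and 156 CPM against 80.2, 66.9 and 85.5 CPM (log2 fold change -0.73 ± 0.36, adjusted p = 0.428).

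The list of collagens, matrix proteins and metalloproteases (55 tested) held 1 rise and 1 fall, both of metalloprotease inhibitors, and had a median of -0.11. Of all genes 0.119% rose and 0.722% fell. Called genes outside that list, whose symbols its patterns did not match, are given next; they were chosen by name after their values were seen. Colp3a (L_var_24301) and Colp4a_2 (L_var_24303) are named for collagen chains. Colp3a had 701, 1271 and 966 CPM in controls and 148, 196 and 223 CPM with alizarin, with every treated library below every control (log2 fold change -2.37 ± 0.48, adjusted p = 0.0217). For Colp4a_2 the levels were 306, 453 and 331 CPM and 85.2, 113 and 119 CPM (log2 fold change -1.78 ± 0.39, adjusted p = 0.0326). Each of the pair kept its call without control A but lost it without any other library (adjusted p up to 0.148 and 0.182). Sparc_2 (L_var_26142), matched to the calcium-binding matrix glycoprotein SPARC, had 22.5, 14.01 and 21.1 CPM against 4.21, 7.09 and 6.71 CPM (log2 fold change -1.68 ± 0.34, adjusted p = 0.0229). Sparc_2 kept its call without control B but lost it without any other library (adjusted p up to 0.151). Hyalin15 (L_var_03194) and Egf/HyalinL5 (L_var_03258) carry the names of hyalin, the protein of the layer around the embryo. Hyalin15 had 2098, 3373 and 2368 CPM against 505, 682 and 710.2 CPM (log2 fold change -2.05 ± 0.46, adjusted p = 0.0401), and Egf/HyalinL5 1096, 2037 and 1287 CPM against 374, 273 and 374 CPM (log2 fold change -2.12 ± 0.48, adjusted p = 0.03998). Both kept their calls without control A and lost them without any other library (adjusted p up to 0.196 and 0.198).

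The rise of the list was that of Timp3 (L_var_06196), of the family of tissue inhibitors of metalloproteases. It had 0.784, 2.29 and 4.18 CPM in controls and 23.03, 26.98 and 14.8 CPM with alizarin. The lowest treated library, alizarin C, was above the highest control, control C (log2 fold change 3.16 ± 0.50, adjusted p = 0.00336), and the call was kept without any 1 of the 6 libraries. The fall was that of Timp4 (L_var_06199), of the same family, which had 35.3, 28.02 and 39.6 CPM against 7.301, 9.41 and 8.45 CPM, with both groups tight and apart (log2 fold change -2.03 ± 0.38, adjusted p = 0.00999). Timp4 lost its call without alizarin A (adjusted p = 0.0879). Outside the list, 2 called genes are named for membrane-type metalloproteases. Mtmmpc (L_var_26192) had 97.9, 161 and 158 CPM against 36.7, 49.3 and 57.9 CPM (log2 fold change -1.53 ± 0.31, adjusted p = 0.0229), and Mtmmpd (L_var_05352) had 53.3, 54.3 and 49.6 CPM against 20.2, 21.6 and 30.1 CPM (log2 fold change -1.13 ± 0.23, adjusted p = 0.0229). Mtmmpc and Mtmmpd each kept the call without alizarin C or control A and lost it without any other library (adjusted p up to 0.1501 and 0.1503).

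Muscle and coelom genes (30 tested) had 2 falls (6.67%, against 0.722% of all genes), no rise and a median of -0.36. MyoR2 (L_var_25173), a basic helix-loop-helix factor of the myogenic repressor family, had 24.4, 19.1 and 30.5 CPM in controls and 1.05, 1.002 and 0.108 CPM with alizarin, with alizarin C lowest (log2 fold change -5.02 ± 0.85, adjusted p = 0.00727), and kept its call without any 1 of the 6 libraries. Mlcka (L_var_02450), named for myosin light chain kinase, had 149, 247 and 211 CPM against 75.9, 77.8 and 82.3 CPM (log2 fold change -1.36 ± 0.32, adjusted p = 0.0442). Mlcka kept its call without control A but lost it without any other library (adjusted p up to 0.209). The following called genes are outside the list and were chosen by name after their values were seen. Msclact (L_var_19627), matched to muscle actin, had 437, 2280.2 and 1535 CPM in controls and 95.1, 89.1 and 86.5 CPM with alizarin. Control A was several times below controls B and C and still above the treated libraries, which were nearly equal (log2 fold change -3.97 ± 0.49, adjusted p = 0.000281), and the call was kept without any 1 of the 6 libraries. The gene matched to a My18A homolog (L_var_17238), an unconventional myosin, had 116, 441 and 216 CPM against 37.2, 42.8 and 8.34 CPM (log2 fold change -3.13 ± 0.55, adjusted p = 0.00727), and MyX (L_var_17775), a myosin, had 149, 232 and 263 CPM against 104, 124 and 91.7 CPM (log2 fold change -1.01 ± 0.23, adjusted p = 0.0451). The My18A gene lost its call without control B (adjusted p = 0.0505), and MyX kept its call without control A but lost it without any other library (adjusted p up to 0.196).

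In the gut list 2 of 60 tested genes fell (3.33%, against 0.722% of all genes), none rose and the median was -0.38. At an unadjusted p below 0.05, 14 were lower (7.79% of all genes), and DESeq2 called 5 lower (2.29% of all genes). Cdx (L_var_01277), the homeodomain factor of the hindgut, had 30.2, 55.3 and 38.6 CPM in controls and 4.44, 6.24 and 0 CPM with alizarin; alizarin C had no reads for it (log2 fold change -3.51 ± 0.74, adjusted p = 0.0332). Cdx kept its call without alizarin C or control A but lost it without any other library (adjusted p up to 0.148). Cpa3 (L_var_05503), a carboxypeptidase A gene, had 89.8, 142 and 91.96 CPM against 25.7, 16.4 and 11.3 CPM (log2 fold change -2.60 ± 0.60, adjusted p = 0.0454). Cpa3 lost its call without each of the 6 libraries in turn (adjusted p up to 0.197). The called genes given next are outside the gut list and were chosen by name after their values were seen. The 2 genes matched to the intestine-specific homeobox factor Isx had 31.9, 39.3 and 28.6 CPM against 3.31, 4.93 and 0.108 CPM (L_var_16848; log2 fold change -3.54 ± 0.75, adjusted p = 0.0288) and 8.23, 5.99 and 10.4 CPM against 0.978, 1.46 and 0.217 CPM (L_var_16864; log2 fold change -3.15 ± 0.49, adjusted p = 0.00609). The latter kept its call without any 1 of the 6 libraries and the former kept its call without alizarin C or control A but lost it without any other library (adjusted p up to 0.148). Fabp2L2 (L_var_13541), matched to intestinal fatty acid binding protein, had 702, 3312 and 2671 CPM against 464, 668 and 200.5 CPM, control A being close to the treated libraries (log2 fold change -2.33 ± 0.49, adjusted p = 0.0278). Fabp2L2 kept its call without alizarin B or control A but lost it without any other library (adjusted p up to 0.172). Blimp1 (L_var_08699), an early endoderm regulator, had 69.98, 68.02 and 79.5 CPM against 35.4, 37.9 and 72.9 CPM, and alizarin C lay inside the control range (log2 fold change -0.57 ± 0.30, adjusted p = 0.475).

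Pigment cell genes (51 tested) had 1 rise and 1 fall (0.119% and 0.722% of all genes). At an unadjusted p under 0.05, 11 were lower (7.79% of all genes), and the median was -0.61. Pks2 (L_var_00620), a polyketide synthase whose S. purpuratus relative is expressed in skeletogenic cells, had 7.94, 14.8 and 19.8 CPM in controls and 129.7, 118 and 74.9 CPM with alizarin, with alizarin C the lowest treated library and still above every control (log2 fold change 2.92 ± 0.50, adjusted p = 0.00609). The rise was called without any 1 of the 6 libraries. Fmo2_2 (L_var_23392), a flavin-containing monooxygenase, had 249, 283 and 268 CPM against 90.1, 103 and 86.9 CPM, both groups tight (log2 fold change -1.51 ± 0.33, adjusted p = 0.0318). Fmo2_2 kept its call without control A but lost it without any other library (adjusted p up to 0.149). The defining pigment genes did not pass. Pks1 (L_var_23510), the polyketide synthase of the naphthoquinone pigment echinochrome, had 2188, 1734 and 1699.7 CPM against 656, 949.8 and 933 CPM, and Gcm (L_var_24790), the factor that specifies pigment cells, had 143, 150.1 and 174 CPM against 33.5, 39.6 and 82.4 CPM. Neither pair of groups overlapped (log2 fold changes -1.15 ± 0.41 and -1.59 ± 0.52, adjusted p = 0.226 and 0.189).

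In the large list of C-type lectins and scavenger receptors 8 of 157 tested genes (5.1%) fell, against 0.722% of all genes, and none rose, with a median of -0.24. The 8 include C-lectin/PMC1, counted above among the spicule matrix genes. DESeq2 called 16 lower, against 2.29% of all genes. Clect_76 (L_var_22169), a C-type lectin, had 34.4, 51.7 and 68.5 CPM in controls and 0.602, 0.385 and 0.217 CPM with alizarin, with all treated libraries under 1 CPM (log2 fold change -6.91 ± 0.69, adjusted p = 7.51e-05). Clect_106 (L_var_01239) had 211, 215 and 269.8 CPM against 25.2, 23.6 and 12.6 CPM (log2 fold change -3.50 ± 0.45, adjusted p = 0.000421), and Clect_13 (L_var_26744) had 47.6, 35.9 and 29.7 CPM against 1.96, 4.39 and 3.36 CPM (log2 fold change -3.54 ± 0.50, adjusted p = 0.00109). In the latter pair the controls were alike and the treated libraries far below them. Clect_41 (L_var_14441) had 14.02, 8.55 and 10.2 CPM against 2.26, 3.24 and 2.38 CPM (log2 fold change -2.05 ± 0.48, adjusted p = 0.0495). Clect_41 lost its call without each of the 6 libraries in turn (adjusted p up to 0.219). Scavenger receptor cysteine-rich (SRCR) proteins are expressed in urchin immune cells. Srcr97 (L_var_12366) had 6.37, 14.2 and 11.7 CPM against 0.828, 1.002 and 1.52 CPM (log2 fold change -3.28 ± 0.40, adjusted p = 0.000281). The 2 genes matched to Srcr179 had 87.04, 68.8 and 53.4 CPM against 13.9, 11.1 and 8.01 CPM (L_var_14442; log2 fold change -2.66 ± 0.42, adjusted p = 0.00346) and 69.3, 49.9 and 58.1 CPM against 9.11, 11.2 and 9.098 CPM (L_var_14526; log2 fold change -2.59 ± 0.47, adjusted p = 0.00867). Among these SRCR and lectin genes Clect_76, Clect_106, Clect_13, Srcr97 and the gene L_var_14442 kept their calls without any 1 of the 6 libraries, and L_var_14526 lost its call without alizarin A (adjusted p = 0.0767). Among 174 tested blastocoelar and immune genes, which include the SRCR family, 3 fell (1.72%, against 0.722% of all genes) and none rose (median -0.13). Scl (L_var_18807), a blood cell regulator, had 2.16, 1.59 and 4.29 CPM against 2.26, 1.85 and 2.92 CPM (log2 fold change -0.19 ± 0.45, adjusted p = 0.926).

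**Figure D3:**
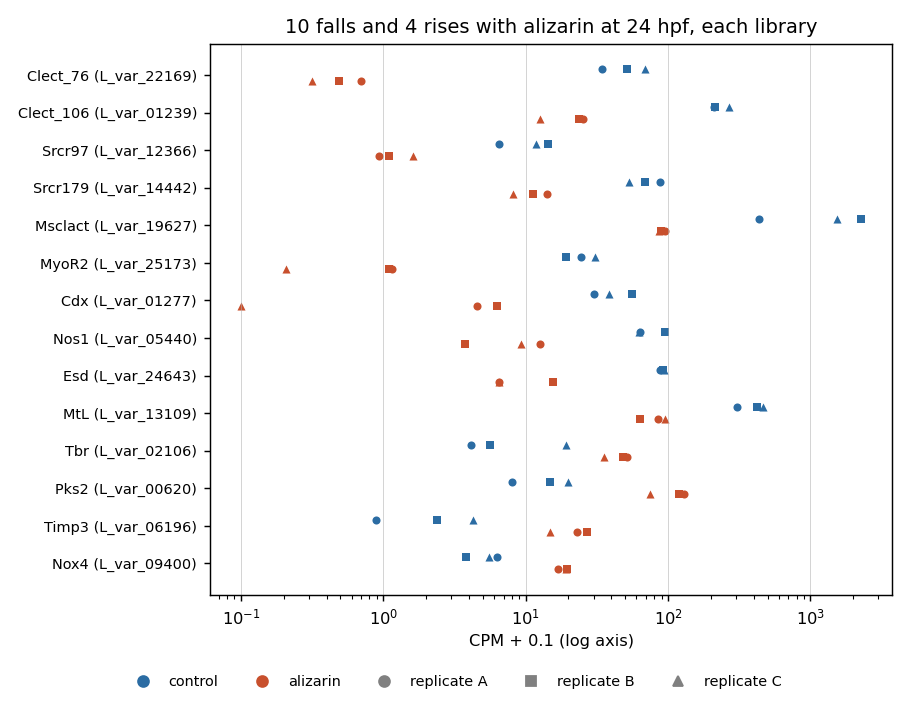
CPM in each library at 24 hpf, with 0.1 added, on a log axis, for 10 genes that fell (2 lectins, 2 scavenger receptors, muscle actin, MyoR2, Cdx, Nos1, Esd and MtL) and 4 that rose (Tbr, Pks2, Timp3 and Nox4); colours are treatments and symbols replicates A, B and C. Red lies left of blue in the upper 10 rows and right of blue in the lower 4, and the groups do not overlap in any row.

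Cilia genes (85 tested) had 2 falls, no rise, 23 lower at an unadjusted p under 0.05 and a median of -0.28, against 0.722% of all genes that fell and 7.79% lower at that unadjusted p. DESeq2 called 13 of them lower, against 2.29% of all genes. Ift172_2 (L_var_25567), a subunit of intraflagellar transport, had 98.4, 140.0 and 138 CPM in controls and 52.4, 40.9 and 65.1 CPM with alizarin (log2 fold change -1.25 ± 0.27, adjusted p = 0.0324). Hydin_2 (L_var_03155), matched to the central-pair protein hydin, had 43.2, 72.8 and 64.7 CPM against 16.5, 18.6 and 19.8 CPM (log2 fold change -1.72 ± 0.39, adjusted p = 0.0427). Ift172_2 kept its call without alizarin C or control A but lost it without any other library (adjusted p up to 0.173), and Hydin_2 kept its call without control A but lost it without any other library (adjusted p up to 0.197). The axonemal dynein heavy chain Dnah9 (L_var_17364) had 289.8, 456 and 306 CPM against 119.8, 123 and 152 CPM (log2 fold change -1.41 ± 0.35, adjusted p = 0.0581). In the apical and neural list (40 tested, median -0.23) 1 gene fell (2.5%, against 0.722% of all genes). It was Hbn (L_var_11394), a homeodomain factor of the anterior neuroectoderm, with 33.6, 57.5 and 84.5 CPM against 19.5, 20.3 and 27.4 CPM (log2 fold change -1.39 ± 0.31, adjusted p = 0.0364). Hbn kept its call without control A but lost it without any other library (adjusted p up to 0.198). Its copy L_var_11431 had -1.29 ± 0.44 and adjusted p = 0.212. Among ectoderm regulators (26 tested, median -0.12) no gene passed, and 3 had lower values with an unadjusted p below 0.05 (7.79% of all genes). Among them, the ventral factor Gsc (L_var_13092) had log2 fold change -1.35 ± 0.37 and Pax2 (L_var_26367) -1.22 ± 0.38, with adjusted p = 0.0919 and 0.159.

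In the list of ion channels and synaptic receptors 144 genes were tested, 1 fell (0.694%, against 0.722% of all genes) and 1 rose (against 0.119%), and the median was -0.04. The fall was that of Kcnk4 (L_var_00249), of the family of leak potassium channels, with 35.97, 48.5 and 29.2 CPM against 4.06, 6.32 and 6.28 CPM (log2 fold change -2.77 ± 0.60, adjusted p = 0.0318). Kcnk4 kept its call without control A but lost it without any other library (adjusted p up to 0.18003). The rise was that of Drd1L_4 (L_var_24389), a dopamine receptor-like gene with 0, 0.0881 and 0 CPM in controls and 0.602, 1.46 and 2.17 CPM with alizarin, which lies below the level at which genes were otherwise named. Outside the list, Nos1 (L_var_05440), neuronal-type nitric oxide synthase, stood at 63.02, 94.4 and 62.1 CPM in controls and 12.4, 3.62 and 9.21 CPM with alizarin (log2 fold change -3.12 ± 0.51, adjusted p = 0.00423). The groups were far apart and the call was kept without any 1 of the 6 libraries. The 2 genes matched to the metabotropic glutamate receptor Grm6L had 3.63, 7.401 and 4.08 CPM against 0.226, 0.463 and 0.108 CPM (L_var_04578; log2 fold change -4.13 ± 0.69, adjusted p = 0.005104) and 3.72, 7.49 and 4.899 CPM against 0.301, 0.463 and 0.325 CPM (L_var_04662; log2 fold change -3.84 ± 0.64, adjusted p = 0.00454). The latter kept its call without any 1 library and the former lost its call without alizarin A (adjusted p = 0.0507). Glur1 (L_var_10548), named for a glutamate receptor, had 573, 1644 and 1561 CPM against 364, 242 and 84.7 CPM, with control A nearest to the treated libraries (log2 fold change -2.45 ± 0.56, adjusted p = 0.0401). Glur1 kept its call without control A but lost it without any other library (adjusted p up to 0.182).

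Xenobiotic enzymes (248 tested) held 1 fall (0.403%), that of Fmo2_2, no rise and a median of -0.22. Among 199 ABC and organic ion transporters 1 fell (0.503%), none rose and the median was -0.22. Each share of falls rests on 1 gene, so its place below the 0.722% of all genes tells little. Before adjustment, edgeR gave p below 0.05 with a negative log2 fold change to 28 of the 248 enzymes and 22 of the 199 transporters. With a positive one it did so for 6 and 4. Among all genes these shares were 7.79% negative and 4.03% positive. DESeq2 called 4 of the enzymes and 3 of the transporters lower, against 2.29% of all genes. The fall among the transporters was that of Abcb4b (L_var_22509), matched to a multidrug transporter, with 49.7, 71.98 and 38.99 CPM in controls and 11.2, 13.9 and 12.02 CPM with alizarin (log2 fold change -2.11 ± 0.47, adjusted p = 0.0345). Abcb4b kept its call without control A but lost it without any other library (adjusted p up to 0.189). Of 49 antioxidant and reactive oxygen genes 1 rose (2.04%, against 0.119% of all genes) and none fell (median 0.09). Nox4 (L_var_09400), a peroxide-producing NADPH oxidase, had 6.17, 3.701 and 5.41 CPM against 16.7, 19.4 and 19.2 CPM, both groups tight (log2 fold change 1.85 ± 0.33, adjusted p = 0.00727). Nox4 lost its call without control B (adjusted p = 0.0782). Catalase, which removes hydrogen peroxide (Cat, L_var_26602), had 132, 217 and 250.0 CPM against 92.4, 101 and 119.8 CPM without overlap (log2 fold change -0.93 ± 0.27, adjusted p = 0.126). Of 35 metal and iron genes 1 fell (2.86%, against 0.722% of all genes; median 0.10). It was Cp (L_var_25021), matched to the copper protein ceruloplasmin, with 122, 140.4 and 95.5 CPM against 23.4, 39.2 and 32.3 CPM (log2 fold change -1.91 ± 0.41, adjusted p = 0.0284). Cp kept its call without control A or control C but lost it without any other library (adjusted p up to 0.174).

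Atp5b (L_var_20500), the beta subunit of mitochondrial ATP synthase, had 2346, 4936 and 5369 CPM in controls and 756, 781 and 1461 CPM with alizarin, with control A lowest among controls and alizarin C highest among treated (log2 fold change -2.08 ± 0.38, adjusted p = 0.00867). It was the one call among 63 respiratory chain genes (1.59% of them, against 0.842% of all genes called; median -0.13). Atp5b lost its call without alizarin A or alizarin B (adjusted p up to 0.08403). Esd (L_var_24643), S-formylglutathione hydrolase, had 88.4, 92.2 and 93.8 CPM against 6.397, 15.6 and 6.39 CPM, with alike controls (log2 fold change -3.27 ± 0.47, adjusted p = 0.00118), and the call was kept without any 1 library. The same holds for MtL (L_var_13109), at 305, 419 and 463 CPM against 84.9, 63.4 and 94.98 CPM (log2 fold change -2.29 ± 0.36, adjusted p = 0.00336). It also holds for Klhl12 (L_var_07203), an adaptor of a ubiquitin ligase, with 6.67, 7.58 and 11.8 CPM against 1.58, 1.08 and 0.758 CPM (log2 fold change -2.90 ± 0.37, adjusted p = 0.000421), and for C10orf112L (L_var_10185), with 5.19, 6.34 and 9.59 CPM against 0.151, 0.617 and 0.433 CPM (log2 fold change -4.11 ± 0.47, adjusted p = 0.000159).

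Further falls were those of genes outside the lists. PpcL (L_var_19416) had 746 reads over the 3 control libraries, most of them in control B, and 1 read over the 3 alizarin libraries, a ratio of scaled counts of 845 with an exact 95% interval of 151 to 33401 that covers counting error only. Its controls, at 0.294, 55.4 and 11.6 CPM, spread widely (log2 fold change -9.12 ± 1.61, adjusted p = 0.00869). PpcL lost its call without alizarin A or alizarin B (adjusted p up to 0.08403). GramarL2 (L_var_26850) had log2 fold change -4.65 ± 0.73, adjusted p = 0.00346 and kept its call without any 1 library. Gluld1 (L_var_01244) had log2 fold change -3.84 ± 0.79, adjusted p = 0.0229. Gluld1 kept its call without control B but lost it without any other library (adjusted p up to 0.132). For Slc7a4_4 (L_var_21887), of a family of amino acid transporters, the values were log2 fold change -3.70 ± 0.85, adjusted p = 0.0443, and it kept its call without control A but lost it without any other library (adjusted p up to 0.285). Allgif1 (L_var_19439), named for allograft inflammatory factor, had log2 fold change -3.69 ± 0.68, adjusted p = 0.00999. Allgif1 lost its call without alizarin B, alizarin C or control B (adjusted p up to 0.0667). Of the 155 called genes 39 have no informative symbol. The largest falls among those were Hypp_305 (L_var_02443), with 9.21, 104 and 49.1 CPM against 0.978, 0.154 and 0.542 CPM (log2 fold change -6.56 ± 1.05, adjusted p = 0.00454), and L_var_09983, with 139, 123 and 163 CPM against 2.86, 6.09 and 0.975 CPM (log2 fold change -5.39 ± 0.82, adjusted p = 0.00319). Both kept their calls without any 1 library.

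Among the 22 rises, the 3 genes matched to AnL1 were all called: L_var_10228 had 1.96, 5.64 and 5.92 CPM in controls and 63.7, 52.04 and 23.4 CPM with alizarin (log2 fold change 3.36 ± 0.75, adjusted p = 0.0395), L_var_10230 had 2.74, 7.49 and 10.3 CPM against 79.6, 41.6 and 37.1 CPM (log2 fold change 2.95 ± 0.60, adjusted p = 0.0229), and L_var_10232 had 5.49, 7.14 and 10.2 CPM against 62.4, 50.03 and 93.3 CPM (log2 fold change 3.17 ± 0.68, adjusted p = 0.0318). They share a symbol, so reads may be divided among copies. In order, they lost their calls without at least 1 library at adjusted p up to 0.168, 0.132 and 0.177: the first kept it without alizarin C only, the second lost it without alizarin A, control A or control B, and the third lost it without each of the 6 libraries in turn. Rab8 (L_var_24857), a small GTPase of vesicle traffic to the plasma membrane and the cilium, had 12.8, 11.1 and 11.2 CPM against 33.4, 28.6 and 32.5 CPM, both groups tight (log2 fold change 1.43 ± 0.27, adjusted p = 0.0115). Rab8 lost its call without alizarin A, control B or control C (adjusted p up to 0.0942). Chst11_13 (L_var_09181), of a family of chondroitin sulfotransferases, had 18.6, 7.14 and 10.002 CPM against 39.6, 26.2 and 46.1 CPM (log2 fold change 1.65 ± 0.35, adjusted p = 0.0273). Chst11_13 kept its call without alizarin B or control A but lost it without any other library (adjusted p up to 0.182).

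Of the further rises, Ddo_1 (L_var_05769), D-aspartate oxidase, had 5.29, 2.03 and 5.31 CPM against 8.58, 22.4 and 21.6 CPM (log2 fold change 2.06 ± 0.48, adjusted p = 0.0454). Ddo_1 kept its call without alizarin A but lost it without any other library (adjusted p up to 0.245). Nfkbil1L (L_var_23596) had log2 fold change 1.77 ± 0.41, adjusted p = 0.0442. Nfkbil1L lost its call without each of the 6 libraries in turn (adjusted p up to 0.214). Telo2 (L_var_17432) had log2 fold change 1.54 ± 0.36, adjusted p = 0.0492. Telo2 lost its call without each of the 6 libraries in turn (adjusted p up to 0.2197), and VwdeL_1 (L_var_04340) had log2 fold change 1.31 ± 0.27, adjusted p = 0.0229. VwdeL_1 kept its call without alizarin C or control A but lost it without any other library (adjusted p up to 0.151). Gpcr126a1 (L_var_15408), an adhesion-type receptor by its name, had 1 read over the 3 controls and 88 over the 3 alizarin libraries, a ratio of 77.7 with an exact 95% interval of 13.6 to 3105 (counting error only); it kept its call without alizarin C but lost it without any other library (adjusted p up to 0.225). The largest rises without an informative symbol were Hypp_1002 (L_var_13825; log2 fold change 1.81 ± 0.32, adjusted p = 0.00727) and L_var_04696 (log2 fold change 1.75 ± 0.40, adjusted p = 0.0401). The former kept its call without any 1 library, and the latter lost its call without each of the 6 libraries in turn (adjusted p up to 0.204).

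Several lists had no call. These were heat shock (60 tested, median 0.07), DNA damage and apoptosis (31, median 0.19), cell cycle (56, median 0.09), Wnt, Notch and hedgehog signalling (33, median 0.10) and ribosomal proteins (81, median -0.55). At an unadjusted p under 0.05, 2 heat shock genes were higher and 5 lower, 3 DNA damage genes lower, 5 cell cycle genes higher and 1 lower, 4 Wnt, Notch or hedgehog genes higher and 3 lower, and 6 ribosomal protein genes lower, against 4.03% of all genes higher and 7.79% lower. Hsp701D (L_var_23112), a heat shock protein 70 gene, had 4.21, 2.91 and 10.3 CPM against 9.93, 21.4 and 31.95 CPM (log2 fold change 1.86 ± 0.77, adjusted p = 0.345), and Tp53bp2L (L_var_13248) had -1.42 ± 0.35 and adjusted p = 0.0583. For the ribosomal gene Rps2 (L_var_17897) the levels were 6961, 11152 and 13585 CPM in controls and 2682, 3267 and 7228 CPM with alizarin, and alizarin C lay inside the control range (log2 fold change -1.27 ± 0.53, adjusted p = 0.348).

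The genes that differed at 24 hpf were then followed over the other times. Of the 133 genes that fell, 118 (88.7%) were higher in control embryos at 30 hpf than at 18 hpf, where 11.2% of all genes were called higher, and 1 was lower. Of the 22 that rose, 13 (59.1%) were lower in controls at 30 hpf than at 18 hpf, against 8.24% of all genes. The control libraries of 18 and 30 hpf are not among the 6 of the 24 hpf comparison. The median control change from 18 to 30 hpf was 3.57 log2 for the genes that fell and -1.48 for those that rose, against -0.03 for all genes. In 55 of the 133 the mean with alizarin at 24 hpf was below the control mean at 18 hpf. The 133 were selected for low values in these same alizarin libraries, which favours such a count. Its share over all genes was not computed, so no conclusion is drawn from it.

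**Figure D4:**
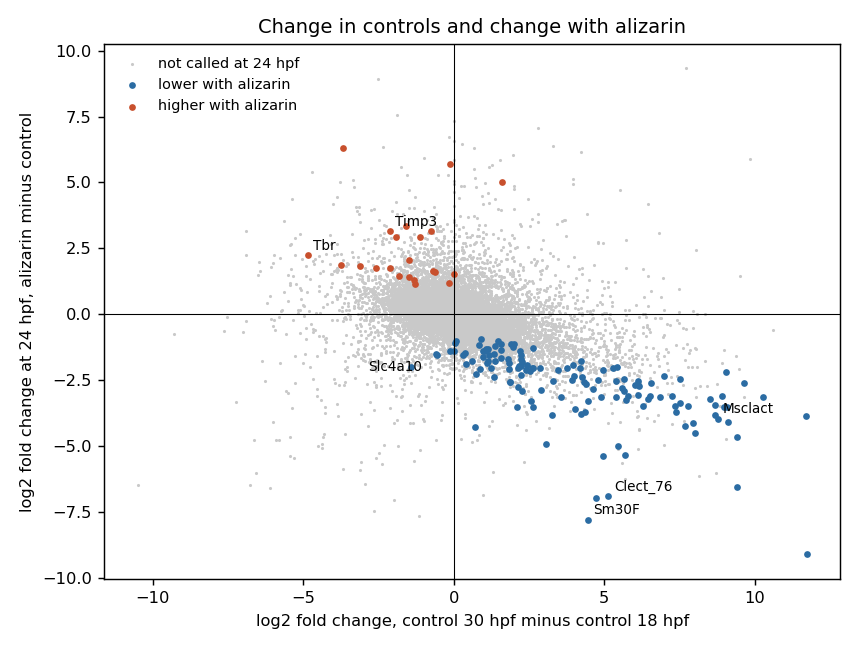
Each point is a gene tested, with its log2 fold change between control embryos of 30 and 18 hpf on the x axis and its log2 fold change with alizarin at 24 hpf on the y axis. Most of the 133 genes called lower with alizarin (blue) lie to the right of 0, and most of the 22 called higher (red) to the left; Slc4a10 lies left of 0 among the blue points.

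Msclact is an example of a gene that increased in controls. Its control mean was 2.399 ± 0.853 CPM at 18 hpf (SD, n = 3), 1417 ± 927 CPM at 24 hpf and 1032 ± 97.9 CPM at 30 hpf, and its alizarin mean was 0.551 ± 0.0819 CPM at 18 hpf (n = 2), 90.3 ± 4.41 CPM at 24 hpf and 421 ± 198 CPM at 30 hpf. Sm30F had control means of 10.6 ± 4.33, 318 ± 178 and 230.0 ± 34.2 CPM at these times and alizarin means of 1.38 ± 1.95 CPM at 24 hpf and 7.55 ± 8.88 CPM at 30 hpf. Its 2 alizarin libraries of 18 hpf, B and C, had 0.522 and 0.690 CPM. Controls A, B and C of that time had 12.8, 5.60 and 13.4 CPM, and the gene was not called there. Slc4a10 differed from this, with control means of 194 ± 65.7 CPM at 18 hpf, 349 ± 79.5 CPM at 24 hpf and 132 ± 31.6 CPM at 30 hpf. Its alizarin mean was 120.3 ± 27.4 CPM at 24 hpf and 155 ± 54.8 CPM at 30 hpf. Tbr fell through the control series from 35.4 ± 6.94 CPM at 18 hpf to 1.21 ± 0.223 CPM at 30 hpf (log2 fold change -4.86 ± 0.53, adjusted p = 2.98e-06), while with alizarin it stood at 45.1 ± 8.695 CPM at 24 hpf and 27.9 ± 9.35 CPM at 30 hpf. Timp3 had alizarin means of 24.2 ± 5.54 CPM at 18 hpf (n = 2), 21.6 ± 6.19 CPM at 24 hpf and 14.96 ± 6.98 CPM at 30 hpf, against 5.24 ± 0.599, 2.42 ± 1.704 and 1.19 ± 0.311 CPM in controls.

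**Figure D5:**
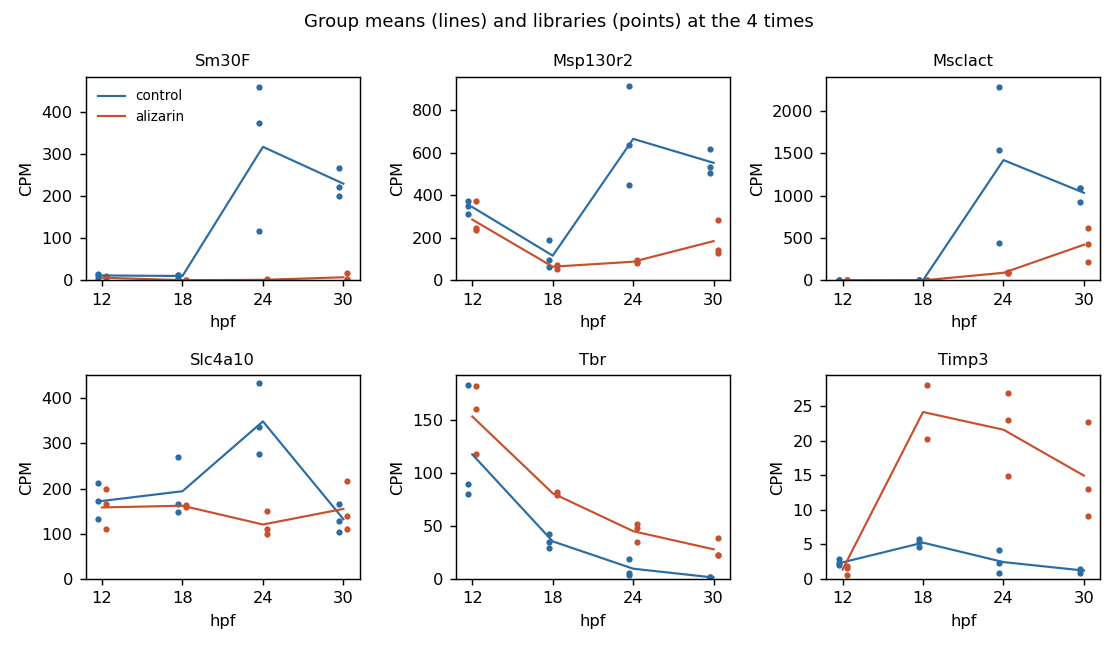
CPM of 6 genes at 12, 18, 24 and 30 hpf, with lines through group means and a point for each library (blue control, red alizarin; 2 alizarin libraries at 18 hpf). Sm30F, Msp130r2 and Msclact have higher control means at 24 than at 18 hpf and lie below every control with alizarin at 24 hpf; Msclact also has a higher alizarin mean at 24 than at 18 hpf. At 18 hpf the alizarin libraries of Sm30F and Msclact also lie below every control. Slc4a10 separates at 24 hpf, and Tbr and Timp3 lie higher with alizarin from 18 hpf on.

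The alizarin effect on these genes was compared between times. At 30 hpf 612 genes (3.32%) were called, and 87 genes were called in the same direction at both times, which is 56.1% of the 24 hpf calls and 14.2% of those at 30 hpf. Of the 133 that fell 75 also fell at 30 hpf, where 2.2% of all genes did, and 131 had the same sign. Of the 22 that rose 12 also rose, where 1.12% of all genes did, and 22 had the same sign. Of all genes 47.8% had a negative log2 fold change at 30 hpf. A test of the difference between the 24 and 30 hpf effects called 3 genes (0.0163%), 2 lower (0.0109%) and 1 higher (0.00543%), none of them among the 155. DESeq2 called 18, and 606 had an unadjusted p below 0.05. The effect on Slc4a10 was -1.54 at 24 hpf and 0.23 ± 0.31 at 30 hpf, and the difference of -1.76 ± 0.44 had an adjusted p of 0.713. For Mtmmpc the effects were -1.53 and 0.26 ± 0.31, with a difference of -1.80 ± 0.44 and an adjusted p of 0.667. Isx (L_var_16864) had -3.15 at 24 hpf and -0.10 ± 0.43 at 30 hpf, and the difference of -3.06 ± 0.64 had an adjusted p of 0.482.

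Earlier, at 12 hpf, 18 genes (0.0977%) were called and 1 of them, Acsf2_3 (L_var_00267), an acyl-CoA synthetase, also fell at 24 hpf (log2 fold change -1.19 ± 0.27, adjusted p = 0.0379). Its log2 fold change at 12 hpf, where 13 genes (0.0706%) fell, was -2.64 ± 0.29 (adjusted p = 0.000259). Acsf2_3 kept its call without alizarin C or control A but lost it without any other library (adjusted p up to 0.202). At 18 hpf, with 2 alizarin libraries, edgeR called none of the genes tested. Of the 133 genes that fell at 24 hpf, 75 had a negative log2 fold change at 12 hpf and 101 at 18 hpf, with medians of -0.08 and -0.58. Of all genes 48.4% had a negative one at 12 hpf and 50.9% at 18 hpf. Of the 22 that rose, 14 had a positive one at 12 hpf and 20 at 18 hpf, with medians of 0.24 and 0.90. The effect at 24 hpf differed from that at 12 hpf for 21 genes (0.114%), 16 of them lower (0.0869%) and 5 higher (0.0271%). Of the 21, 12 are among the 155.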

How the data were processed

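The authors deposited raw read counts of every gene in each library, per the file headers. All values used were whole numbers. TRIzol extraction and DNBSEQ mRNA libraries are given per the labels' protocols, and alignment with STAR 2.7.1a per the submitters' processing notes. The genome build, annotation, counting tool and strand setting are not given in the sources used here, so no positions are given and reads of antisense or overlapping genes cannot be told apart. Of 27232 gene IDs 1 with unreadable counts was left out. A symbol of the S. purpuratus match was given for 21650 IDs, and 13076 share theirs with another, so reads may be divided among copies.

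Genes were kept with edgeR's filterByExpr (minimum count 10), which left 18419. After TMM scaling, 8 group means were fitted to the 23 libraries with edgeR 4.0.16 (robust quasi-likelihood, 15 residual degrees of freedom). The 24 hpf effect was also tested against that at 30 and 12 hpf, and control 30 hpf against control 18 hpf. P-values are two-sided and adjusted by Benjamini-Hochberg over all genes (threshold 0.05). A standard error is the size of the log2 fold change over the root of its F statistic. The model was tested on simulated counts. DESeq2 1.42.0, other scaling, no filter, a fit of the compared groups alone, replicate blocks and leaving out each library were alternatives.

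The comparison, the 26 gene lists and the rule for named genes were chosen with earlier results of these data known. Wrong matches were removed from lists by name after the table was seen, and the histone list matched no symbol. A called gene with an informative symbol, at least 2 CPM in either group's mean and groups that do not overlap could be named. The rule took the 15 largest falls, the 12 largest rises, up to 4 members of each list by adjusted p, and 2 falls and 2 rises without an informative symbol. Sm50, Sm30, Msp130, Alx1, Tbr, Vegf3, Vegfr and Cat were always eligible. Further genes are named with their values to show a list's range, and were chosen after their values were seen.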

Additional observations from a re-analysis of the deposited data

Results flagged for a closer look

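A test of the difference itself called the effect of alizarin at 24 hpf different from that at another time for the genes below (edgeR, adjusted over all genes), with 3 libraries in each group. Against 30 hpf there were 3 genes, none called at 24 hpf. The difference was -4.51 for Hypp_2760 (L_var_17039; adjusted p = 5.81e-07), whose effect was 0.01 at 24 hpf and 4.52 at 30 hpf, and -2.67 for L_var_26325 (adjusted p = 0.00174), with 0.61 and 3.28. It was 2.80 for Rej5 (L_var_17573; adjusted p = 0.00434), with 0.37 and -2.43.

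Against 12 hpf, 12 of the 155 genes were called. Genes that fell at 24 hpf, with an effect lower there than at 12 hpf, were Sm30F (difference -6.97), L_var_10532 (-6.60), Clect_76 (-6.39), L_var_26296 (-5.15), C10orf112L (-4.85), Clect_106 (-4.35), C-lectin/PMC1 (-4.08), Klhl12 (-3.92), Msp130r2 (-2.65) and Fkbp15 (-1.89). Timp3 and Nox4, which rose at 24 hpf, had differences of 3.97 and 2.32. Adjusted p-values of these 12 lay between 0.00118 and 0.0433. Both genes that rose had a negative log2 fold change at 12 hpf, -0.81 and -0.47. The count depends on single libraries: 310 genes were called without control A of 12 hpf and 5 without control B of 24 hpf, against 21.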

How the results depend on the processing

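The count of 155 genes was 151 with RLE scaling, 116 with upper quartile scaling (25 of them higher, median of all genes 0.09), 132 with no filter, 150 with only the 24 hpf libraries (86 of the 155 kept) and 186 with a replicate block over all libraries. DESeq2 gave 505 and a replicate block within 24 hpf 67 (43 kept). Leaving out 1 library gave 41 to 167. Deviations of same-lettered libraries from their group means correlated at -0.24 (A), 0.19 (B) and -0.05 (C). Because each group has only 3 libraries, these values cannot decide whether the letters pair the libraries. Calls at both 24 and 30 hpf were 288 with DESeq2 and 29 to 88 without 1 library, against 87. Differences from 30 hpf called 18 genes with DESeq2, 7 with the replicate block over all libraries, 5 with that within the 2 times and 3 to 6 without 1 library, against 3. Differences from 12 hpf, 21 genes, became 349 with DESeq2, 10 with no filter, 13 with the replicate block over all libraries, 1 with that within the 2 times, 1 with only the 2 times in the fit and 5 to 310 without 1 library. The cause was not tested. Of the 85 called genes named in the text none changed sign where it was tested, which was 83 of them with DESeq2, 82 in each of the 2 fits of the 24 hpf libraries alone and all in the others. Their groups do not overlap, so a change of sign could hardly occur and its absence tells little. Of the 85, 18 (without control A) to 53 (without alizarin A) lost their call without 1 library. The replicate block within 24 hpf lost 51 of 82. Of 36 named genes without a call, DESeq2 called 17. Of those without a call, leaving out 1 library gave Scl log2 fold changes of -0.46 to 0.32 and Msp130r6 -8.66 to 2.10, each positive without control C. With 3 libraries a group, 125 of the 155 calls are lost without some library.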

Other observations

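Further genes of the 155 belong to none of the lists with calls above. The 11 given here were chosen after their values were seen, and none of their groups overlap. FoxL1 (L_var_03436), a forkhead factor, had 35.7, 52.1 and 59.8 CPM in controls A, B and C and 18.5, 13.1 and 9.96 CPM in alizarin A, B and C (log2 fold change -1.82 ± 0.38, adjusted p = 0.0253). Znf503 (L_var_25856), a zinc finger protein, had 199, 368 and 420.4 CPM against 76.8, 78.6 and 167 CPM (log2 fold change -1.62 ± 0.38, adjusted p = 0.0458), and alizarin C, its highest treated library, stayed below every control. FoxL1 kept its call without control A but lost it without any other library (adjusted p up to 0.121), and Znf503 kept its call without alizarin C or control A but lost it without any other library (adjusted p up to 0.238). Fkbp15 (L_var_23339), of the FK506-binding protein family by its name, had 63.02, 79.5 and 77.5 CPM against 22.1, 33.5 and 28.7 CPM (log2 fold change -1.38 ± 0.25, adjusted p = 0.00785). Fkbp15 lost its call without alizarin A (adjusted p = 0.0792).

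Far1 (L_var_16401), a fatty acyl-CoA reductase, had 156, 214 and 181 CPM in controls and 78.2, 92.9 and 78.4 CPM with alizarin (log2 fold change -1.14 ± 0.27, adjusted p = 0.0492). Far1 lost its call without each of the 6 libraries in turn (adjusted p up to 0.2197). C4mso (L_var_01065), a methylsterol monooxygenase of sterol synthesis, had 47.8, 56.8 and 41.7 CPM against 13.3, 15.4 and 26.97 CPM (log2 fold change -1.40 ± 0.32, adjusted p = 0.0442). C4mso kept its call without alizarin C but lost it without any other library (adjusted p up to 0.228). Ggt1_4 (L_var_04846), a gamma-glutamyltransferase, had 13.9, 15.2 and 11.7 CPM against 3.76, 2.39 and 2.82 CPM (log2 fold change -2.18 ± 0.46, adjusted p = 0.0271). Ggt1_4 kept its call without control A but lost it without any other library (adjusted p up to 0.137). Taut (L_var_21346), a taurine transporter, had 17.5, 8.55 and 7.55 CPM against 1.13, 3.62 and 2.82 CPM (log2 fold change -2.15 ± 0.49, adjusted p = 0.0427). Taut lost its call without each of the 6 libraries in turn (adjusted p up to 0.217).

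Of the genes called in each of the 6 fits with 1 library left out, 24 have an informative symbol. Those not described above include Igcamr (L_var_15458), with 35.9, 36.3 and 34.1 CPM in controls and 3.84, 6.399 and 4.12 CPM with alizarin (log2 fold change -2.88 ± 0.46, adjusted p = 0.00364). Pres_1 (L_var_06687) had 193, 231 and 229.5 CPM against 54.3, 81.95 and 40.7 CPM (log2 fold change -1.88 ± 0.31, adjusted p = 0.00454). Asp_9 (L_var_19697) had 132, 137 and 80.8 CPM against 31.8, 31.5 and 23.5 CPM (log2 fold change -2.01 ± 0.35, adjusted p = 0.00682), and Kiaa1161L_2 (L_var_01502) had 36.2, 25.6 and 13.3 CPM against 3.01, 5.397 and 3.25 CPM (log2 fold change -2.68 ± 0.43, adjusted p = 0.00346).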
